A study of Mus musculus with 16 samples.

Results

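The 32 genes described here mark the cells of the vessel wall: 22 are markers of endothelial cells and 10 are markers of mural cells, the pericytes and smooth muscle cells that surround the endothelium. They were chosen by name with earlier results of these data known. The 23946 genes they came from had an FPKM value (fragments counted per length of transcript and depth of library) in each library. The endothelial and mural genes were kept apart as 2 views of vessel content. All 32 passed the filter for testing, which left 12100 genes. The libraries came from the free walls of the right and left ventricle of male mice of the inbred FVB strain, 10 to 13 weeks old, and held polyA RNA. A banded group (marked PS in the labels, read here as pulmonary artery banding) and a sham-operated group were sequenced for each ventricle, with 4 libraries in each of the 4 groups. The labels name no genetic change in any group. The banding narrows the outflow of the right ventricle and is named in the study's design as a model of right ventricular failure, so the left ventricle of banded mice is the chamber that was not banded. The labels do not say which libraries share an animal, so the p-values rest on differences among these libraries alone, part of which may be technical.

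Endothelial cells line every vessel of the heart. They are held together by junction proteins such as VE-cadherin, read flow and growth factors through receptor kinases, and keep their identity through transcription factors of the ETS and SOX families. In the heart the capillary endothelium also passes fatty acids from the blood to the muscle cells, which depends on lipid-handling proteins. Pericytes sit on capillaries and smooth muscle cells on arterioles, where both take up signals from the endothelium through PDGF and Notch receptors.

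The RNA held heart muscle transcripts by its markers: 8 cardiomyocyte genes, most of which the atria share, summed to between 23870 and 61070 FPKM per library. Depth was not given with the FPKM. It was estimated from the steps of the lowest values at 3.55e+05 to 1.35e+06 fragments (at an assumed length of 200 nt) in the right ventricular sham libraries, 2.34e+06 to 5.62e+06 in the right banded, 2.04e+06 to 4.27e+06 in the left sham and 3.72e+06 to 9.33e+06 in the left banded libraries. The right ventricular sham libraries were thus the shallowest. A value of 0 was given for Rn45s, the precursor of ribosomal RNA, in 5 banded libraries (right PS_9561 and PS_9564, left PS_9552, PS_9553 and PS_9561). In these 5 the typical gene was 1.22 to 1.28 times the level of an average library, against 0.84 to 1.02 times in the other 11. Every comparison was therefore fitted both as deposited and after each library was divided by this scale factor, and a gene is said here to have risen or fallen only where limma gave an adjusted p under 0.05 in the same direction on both scales. Values within a group are given in the order of libraries 1, 2, 3 and 4 for sham and PS_9552, PS_9553, PS_9561 and PS_9564 for banded mice. Whether groups overlap is said of the values as deposited unless the rescaled values are named. Differences are on the scale of log2(FPKM + 1), which understates the change of low genes.

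The genes differed widely in level on the FPKM scale, which is normalised to transcript length. Fabp4, a fatty acid carrier of capillary endothelium that adipocytes also make, had the highest mean over the 16 libraries at 1162 FPKM, and supplied 48.5% to 63.2% of the summed FPKM of the 22 endothelial genes in a library. Egfl7, a secreted endothelial matrix protein, followed at 142 FPKM. Of the 32 genes, 26 had a mean of at least 10 FPKM and 2 of at least 100. The most abundant mural genes were the smooth muscle actin Acta2 (81.5 FPKM, library range 25.0 to 156) and Rgs5, a G-protein regulator of pericytes (76.2 FPKM, 35.6 to 154). At the low end stood the transcription factor Tal1 at 2.11 FPKM and the contractile protein Cnn1 at 0.665 FPKM, each listed at 0 in the right sham library 2. That library was the shallowest, and there Ctla2a rested on about 0.79 estimated fragments, Tagln on 2.48, Plvap on 2.60 and Sox17 on 2.81.

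**Figure D1:**
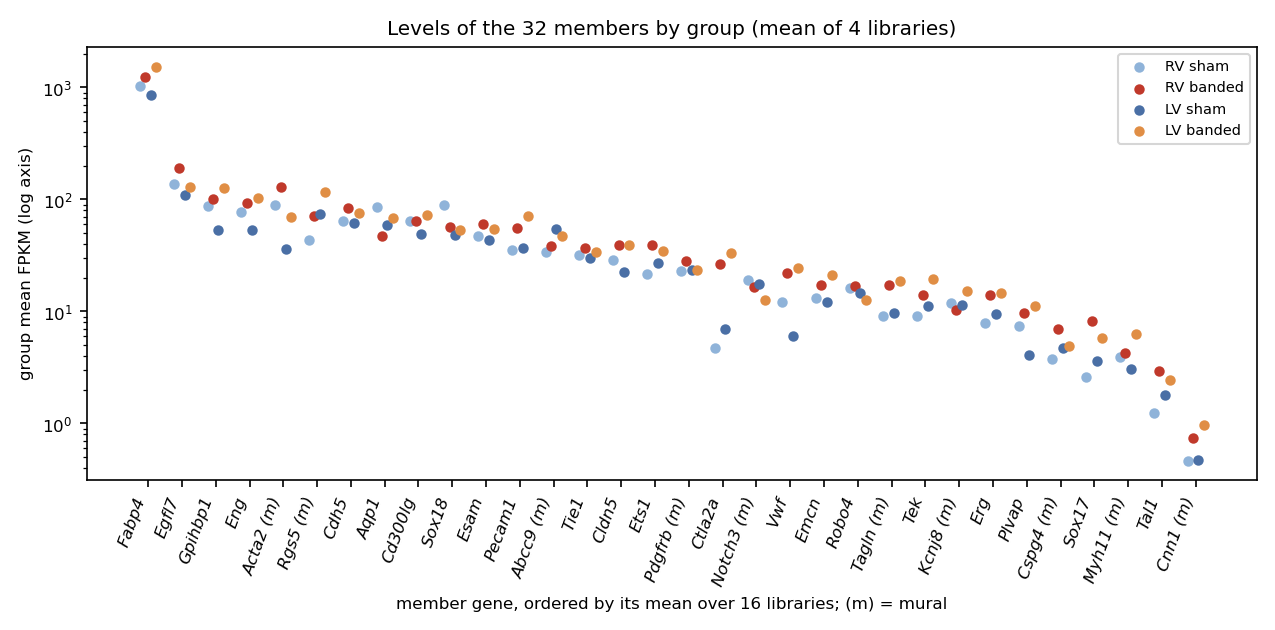
Group mean FPKM of the 32 genes (log axis, n = 4 libraries per point), ordered by the mean over 16 libraries, with mural genes marked (m). Fabp4 stands at 1162 FPKM, far above the rest, and Ctla2a, Vwf, Acta2 and Sox17 have widely spaced group means.

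Sequence upstream of the start site could be shown for 4 of the 8 genes that rose in either ventricle, and is printed because these genes can then be compared for letters read by endothelial and mural transcription factors, among them the SOX family to which Sox17 belongs. The windows hold the 250 bases before the start site, 5′ to 3′ on the strand of the gene, from RefSeq on build GRCm38.p6. The positions are not those of the authors' mm9 alignment. The windows are chr13:60936626-60936875 on the minus strand for Ctla2a (the first of 2 entries), chr9:56864854-56865103 on the plus strand for Cspg4, chr1:169655251-169655500 on the plus strand for Rgs5 and chr2:32646345-32646594 on the plus strand for Eng. Capitals mark every match, on either strand, to an ETS motif (CNGGAAG), a SOX motif (ACAAT, or ATTGT when read from the other strand), an RBPJ motif of Notch signalling (TGGGAA) or the CArG box of smooth muscle genes.
Ctla2a: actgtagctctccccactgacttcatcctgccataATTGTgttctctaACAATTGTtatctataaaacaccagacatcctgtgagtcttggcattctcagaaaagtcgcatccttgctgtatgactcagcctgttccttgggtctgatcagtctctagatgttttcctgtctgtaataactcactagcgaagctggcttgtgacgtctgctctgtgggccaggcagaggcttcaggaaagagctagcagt
Cspg4: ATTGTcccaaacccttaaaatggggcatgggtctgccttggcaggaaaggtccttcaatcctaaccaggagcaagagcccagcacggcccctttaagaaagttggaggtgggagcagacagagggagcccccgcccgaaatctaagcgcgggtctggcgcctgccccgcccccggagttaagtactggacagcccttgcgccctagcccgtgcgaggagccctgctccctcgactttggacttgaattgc
Rgs5: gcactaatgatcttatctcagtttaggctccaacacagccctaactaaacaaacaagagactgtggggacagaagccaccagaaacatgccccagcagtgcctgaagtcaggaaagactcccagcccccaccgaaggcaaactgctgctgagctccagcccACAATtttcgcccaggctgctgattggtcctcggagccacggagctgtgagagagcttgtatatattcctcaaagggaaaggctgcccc
Eng: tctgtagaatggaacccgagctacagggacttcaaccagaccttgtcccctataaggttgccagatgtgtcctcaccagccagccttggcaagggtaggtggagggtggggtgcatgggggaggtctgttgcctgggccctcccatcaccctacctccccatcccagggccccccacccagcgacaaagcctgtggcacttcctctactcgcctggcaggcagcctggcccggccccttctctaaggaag
Every capital run is a SOX match: there were 3 in Ctla2a, of which 2 overlap in one run, 1 in Cspg4, 1 in Rgs5 and none in Eng. The second entry of Ctla2a, which is not printed, held an ETS match and no SOX match. The table held 24 promoters of 18 of the 32 genes, matched by symbol, 17 of 11 endothelial and 7 of 7 mural genes. No entry was matched for Pecam1, Cdh5, Esam, Cd300lg, Fabp4, Sox17, Sox18, Ets1, Plvap, Vwf, Gpihbp1, Pdgfrb, Myh11 and Tagln. The ETS letters occurred in 8 of the 17 endothelial promoters (47.1%) and 0 of the 7 mural ones, against 26.6% of all 32851 promoters in the table. SOX letters occurred in 5 of 17 (29.4%) and 4 of 7 (57.1%), against 27.7% of all. RBPJ letters occurred in 5 of 17 and 2 of 7 (28.6%), against 21.6%, and the CArG box in none of the 24, against 1.47%. A match is a run of letters and not a shown binding site.

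In the banded right ventricle 6 of the 32 genes rose, 4 endothelial (Sox17, Ets1, Ctla2a and Pecam1) and 2 of pericytes (Rgs5 and Cspg4). None fell. These 6 are 18.8% of the 32, and of all 12100 genes 10.5% rose and 4.93% fell by the same rule. The 18 endothelial genes that did not rise included the junction gene Cdh5 and the receptor Tie1, and none of the 4 smooth muscle genes rose. In RNA from whole tissue, fewer or more cells of a type and less or more RNA per cell cannot be told apart. The median log2 difference was 0.40 as deposited and 0.21 rescaled for the endothelial genes, 0.26 and 0.15 for the mural genes, and 0.26 and 0.11 for all genes tested. As deposited alone, 7 passed as higher (12.5% of all genes), and rescaled alone 7 passed as higher (10.8%) and 2, Aqp1 and Sox18, as lower (9.10%). At an unadjusted p under 0.05, 15 of the 32 (46.9%) passed as deposited and 12 (37.5%) rescaled, in either direction, against 34.7% of all genes on each scale. Without regard to a test, 9 had all 4 banded libraries above all 4 sham libraries as deposited (the 6 above with Tek, Vwf and Acta2) and none the reverse, against 12.6% and 5.07% of all genes. Rescaled, 7 did (Erg in place of Ctla2a, Vwf and Acta2) and none the reverse, against 10.6% and 8.92%.

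**Figure D2:**
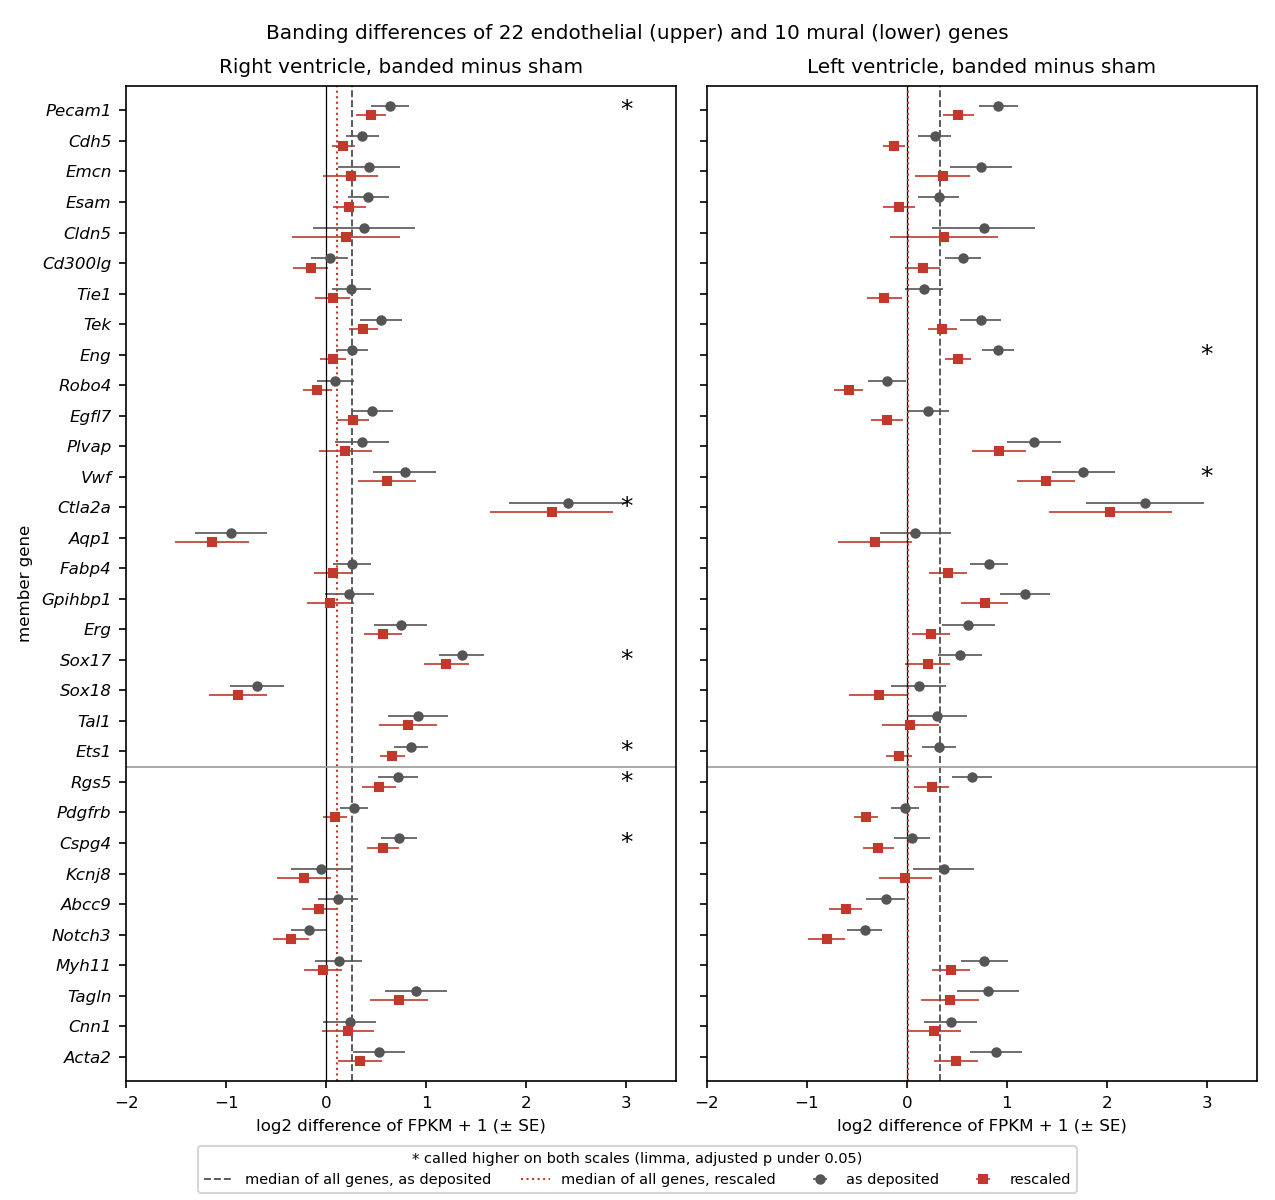
Log2 difference of FPKM + 1 between banded and sham libraries (± SE) for the 22 endothelial and 10 mural genes in the right (left panel) and left ventricle (right panel), as deposited and rescaled, with the median of all genes as vertical lines. Stars mark the 6 genes that rose in the right and the 2 that rose in the left ventricle.

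Among transcription factors of the endothelium, Sox17, which takes part in arterial specification, rose in the right ventricle. Its level was 2.06, 2.60, 2.53 and 3.27 FPKM in the sham libraries and 6.47, 8.81, 8.72 and 8.88 FPKM in the banded libraries. The lowest banded library lay well above the highest sham library. The log2 difference was 1.35 ± 0.22 (SE, n = 4 per group, limma adjusted p = 0.0011) as deposited and 1.20 (adjusted p = 0.0020) rescaled. This call held in each of the 21 alternative analyses, including the one limited to libraries with an Rn45s value (1.25, adjusted p = 0.022), which leaves 2 of the 4 right banded libraries. The sham values of Sox17 rested on only about 2.81 to 11.7 estimated fragments. Ets1, an ETS family factor also made by lymphocytes, rose as well. Ets1 stood at 26.4, 22.6, 17.4 and 19.8 FPKM in sham and at 32.5, 35.5, 42.3 and 47.9 FPKM in banded libraries, again with no overlap. Its log2 difference was 0.85 ± 0.17 (adjusted p = 0.0038) as deposited and 0.66 (adjusted p = 0.0024) rescaled, and 0.65 (adjusted p = 0.088) in the libraries with an Rn45s value. The 6 lymphocyte markers summed to 2.06 to 11.7 FPKM in sham and 1.66 to 5.24 FPKM in banded libraries, and 2 of them could be tested (0 called at an unadjusted p under 0.05 on either scale).

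The other 3 endothelial transcription factors passed on one scale only. Erg, an ETS factor that maintains endothelial identity, went from 7.93 ± 2.18 (SD, n = 4) to 14.1 ± 4.38 FPKM (log2 difference 0.74, adjusted p = 0.058 as deposited, 0.57 and 0.049 rescaled). Tal1, a factor of the hematopoietic and endothelial lineages, went from 1.24 ± 0.961 to 2.94 ± 0.799 FPKM (0.92, adjusted p = 0.042 as deposited, 0.82 and 0.056 rescaled). Sox18, the SOX factor close to Sox17 in family and known from vessel and lymphatic development, was on the other side of 0. It stood at 106, 81.9, 65.8 and 104 FPKM in sham and at 66.6, 34.6, 77.7 and 46.7 FPKM in banded libraries, and these ranges overlapped. Its log2 difference was -0.69 (adjusted p = 0.084) as deposited and -0.88 (adjusted p = 0.044) rescaled. Thus the 2 SOX members had differences of opposite sign in the same libraries.

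**Figure D3:**
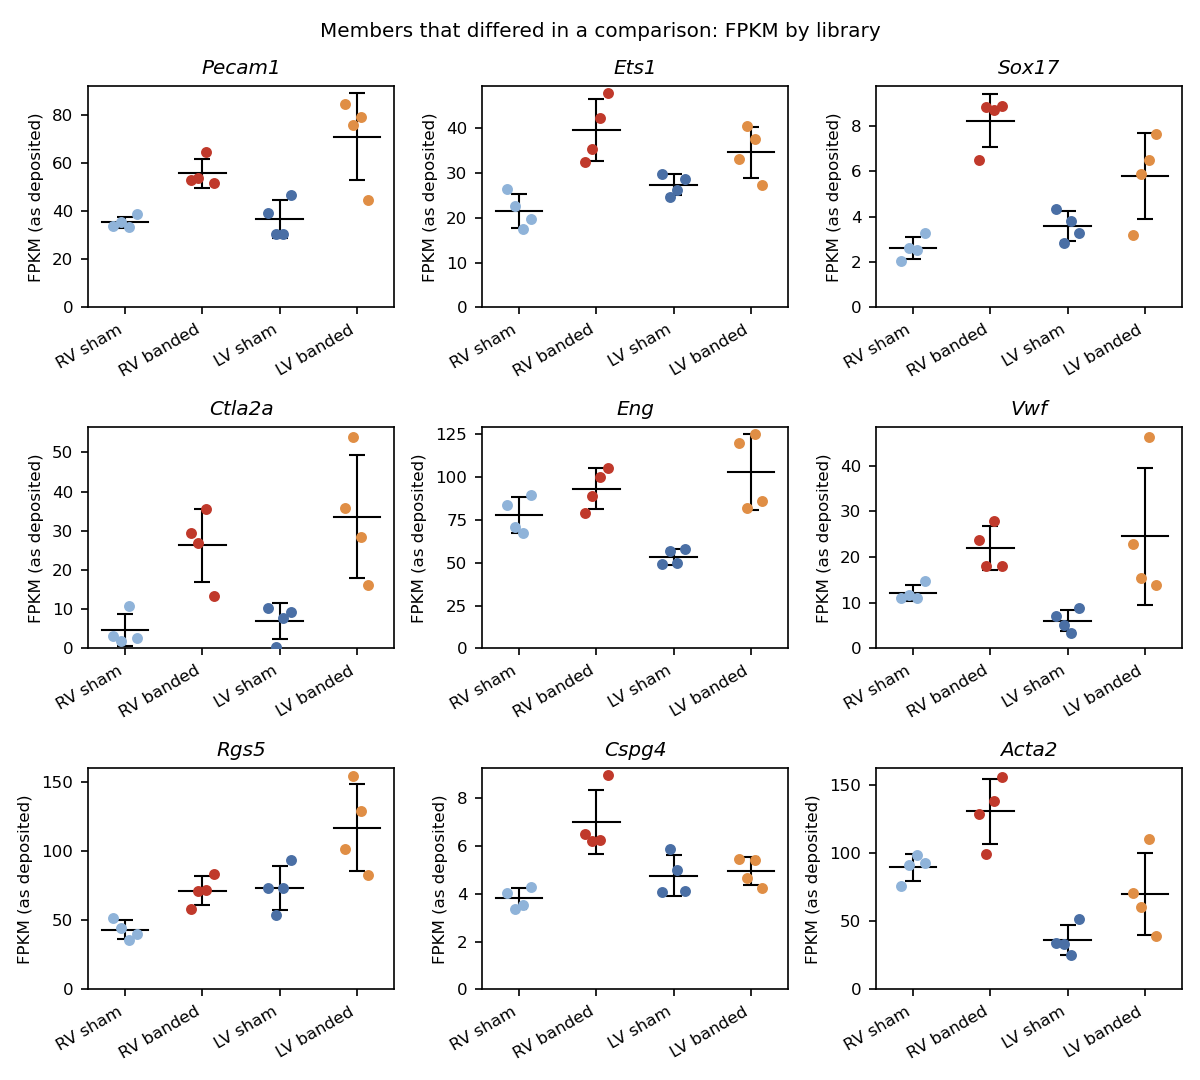
FPKM as deposited in each of the 16 libraries for the 9 genes that differed in at least 1 comparison, with the group mean and SD (n = 4) as bars. Sox17 and Ctla2a are separated between sham and banded right ventricles, Eng and Vwf between sham and banded left ventricles, and Acta2 between the sham ventricles.

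Of the genes for junction and surface proteins 1 of 6 rose in the right ventricle. Pecam1, an adhesion protein of endothelial junctions, was measured at 33.8, 35.6, 33.5 and 38.7 FPKM in sham and at 53.0, 53.7, 64.6 and 51.6 FPKM in banded libraries. The groups did not overlap, and library PS_9561 stood above the other banded libraries. The log2 difference was 0.64 ± 0.19 (adjusted p = 0.032) as deposited and 0.45 (adjusted p = 0.048) rescaled, so it passed the rescaled threshold narrowly. Omission of any 1 of the 8 right ventricular libraries ended the call on at least 1 scale (log2 difference 0.57 to 0.68, adjusted p = 0.05005 to 0.115), and the difference was 0.58 (adjusted p = 0.129) in the libraries with an Rn45s value. With a correction for transcript length it was 0.32 (adjusted p = 0.164). The call also ended with a pseudocount of 5, with no filter, with a robust prior and in a fit of the 2 groups alone (adjusted p = 0.051 to 0.079). The other 5 did not pass on either scale. Cdh5, which encodes VE-cadherin, was at 63.5, 66.8, 56.0 and 69.1 FPKM in sham and at 71.4, 67.2, 92.7 and 102 FPKM in banded libraries, with overlap, a log2 difference of 0.36 and an adjusted p of 0.139. Emcn, a sialomucin of capillaries and veins, Esam, a tight junction adhesion protein, and Cldn5, the endothelial claudin, had differences of 0.42, 0.42 and 0.38. Cldn5 varied most within groups, from 16.1 to 51.2 FPKM in sham and from 19.6 to 75.9 FPKM in banded libraries. Cd300lg, a surface receptor of capillary endothelium, was at 64.2 ± 15.1 and 64.5 ± 8.16 FPKM.

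Of the 4 endothelial receptors none passed in the right ventricle. Tek, the receptor kinase for angiopoietins, came closest. It was at 8.63, 8.25, 9.41 and 10.3 FPKM in sham and at 13.6, 10.7, 16.9 and 14.7 FPKM in banded libraries. These did not overlap, but the difference of 0.55 had an adjusted p of 0.075. Tie1, its partner receptor, went from 31.6 ± 8.80 to 36.7 ± 3.40 FPKM. Eng (endoglin), a TGF-beta family coreceptor, went from 77.9 ± 10.5 to 93.2 ± 11.7 FPKM, a difference of 0.26 (adjusted p = 0.271). Robo4, an endothelial receptor of the Roundabout family, had a difference of 0.09 (16.1 ± 3.67 and 17.0 ± 1.63 FPKM).

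Among secreted, storage and diaphragm proteins, Ctla2a, a cysteine protease inhibitor, had the largest log2 difference of the 32 genes. It was at 3.27, 1.90, 10.9 and 2.68 FPKM in sham and at 29.3, 26.9, 35.5 and 13.3 FPKM in banded libraries. Sham library 3 stood close to the lowest banded library, and the groups did not overlap as deposited. Rescaled, sham library 3 (12.3) lay above banded library PS_9564 (10.6). The difference was 2.42 ± 0.59 (adjusted p = 0.011) as deposited and 2.25 (adjusted p = 0.017) rescaled, and 2.59 (adjusted p = 0.118) in the libraries with an Rn45s value. The sham values rested on about 0.79 to 8.68 estimated fragments. Ctla2a has a near-identical copy, Ctla2b, which was at 2.36 ± 1.58 in sham and 5.43 ± 3.06 FPKM in banded libraries, and how the counting divided reads between them is not given, so the level of each is uncertain. Vwf, the clotting factor stored in endothelial granules and carried by platelets, was at 11.1, 11.7, 11.1 and 14.8 FPKM in sham and at 23.8, 17.9, 27.8 and 18.1 FPKM in banded libraries. Without overlap, its difference of 0.79 ± 0.31 had an adjusted p of 0.090. Egfl7 went from 139 ± 36.6 to 189 ± 42.7 FPKM (0.46, adjusted p = 0.128) and Plvap, the protein of endothelial fenestral diaphragms, from 7.47 ± 2.54 to 9.69 ± 2.74 FPKM (0.36, adjusted p = 0.361).

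The 3 genes of water and lipid transport did not pass on both scales in the right ventricle. Aqp1, the water channel of endothelium and red cells, was at 81.0, 59.3, 87.0 and 118 FPKM in sham and at 77.1, 41.3, 47.9 and 21.6 FPKM in banded libraries. Banded library PS_9552 lay within the sham range. The difference was -0.95 ± 0.36 (adjusted p = 0.073) as deposited and -1.14 (adjusted p = 0.039) rescaled. It was -1.26 (adjusted p = 0.025) after correction for transcript length, and without library PS_9552 it passed on both scales (-1.23, adjusted p = 0.027). Fabp4 went from 1021 ± 186 to 1234 ± 301 FPKM (0.26, adjusted p = 0.339). Gpihbp1, which anchors lipoprotein lipase on capillaries, went from 87.9 ± 30.9 to 100.3 ± 20.6 FPKM (0.23, adjusted p = 0.529). Red cells also carry Aqp1, platelets Vwf and adipocytes Fabp4. The 8 erythroid and platelet genes summed to 35.0 to 252 FPKM in sham and 96.9 to 344 FPKM in banded right ventricles. The 5 adipocyte genes summed to 2.10 to 15.9 and 0.118 to 17.8 FPKM. The part of these cells in the values of Aqp1, Vwf and Fabp4 was not tested.

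Of the 6 pericyte genes 2 rose in the right ventricle. Rgs5 was at 51.8, 44.7, 35.6 and 40.2 FPKM in sham and at 58.0, 71.3, 72.0 and 83.6 FPKM in banded libraries, with no overlap. The log2 difference was 0.71 ± 0.20 (adjusted p = 0.024) as deposited and 0.52 (adjusted p = 0.041) rescaled. It was 0.58 (adjusted p = 0.197) in the libraries with an Rn45s value and 0.38 (adjusted p = 0.130) after correction for transcript length. The call also ended on omission of sham libraries 3 and 4 or of any 1 banded library (0.63 to 0.81, adjusted p = 0.059 to 0.107), with no filter (adjusted p = 0.053) and in a fit of the 2 groups alone (adjusted p = 0.059). Cspg4, the NG2 proteoglycan of pericytes, was at 4.03, 3.36, 3.51 and 4.28 FPKM in sham and at 6.48, 6.20, 6.24 and 8.96 FPKM in banded libraries. Its groups did not overlap, and library PS_9564 stood above the other 3. The difference was 0.72 ± 0.18 (adjusted p = 0.013) as deposited and 0.56 (adjusted p = 0.020) rescaled. It was 0.62 (adjusted p = 0.163) in the libraries with an Rn45s value, 0.29 (adjusted p = 0.235) after correction for transcript length, 0.75 (adjusted p = 0.055) without library PS_9552 and 0.61 (adjusted p = 0.058) without library PS_9564. Under quantile normalization it was 0.44 (adjusted p = 0.079), and a fit of the 2 groups alone gave an adjusted p of 0.080.

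The other pericyte genes did not pass in the right ventricle. Pdgfrb, the PDGF receptor that pericytes need for recruitment, went from 23.0 ± 2.18 to 28.1 ± 3.297 FPKM (0.27, adjusted p = 0.176). Kcnj8 and Abcc9, the pore and regulatory subunits of the ATP-sensitive potassium channel of pericytes, had differences of -0.05 and 0.12. Abcc9, which cardiomyocytes also use, spread from 24.8 to 57.3 FPKM over the banded libraries. Notch3, the Notch receptor of mural cells, went from 19.0 ± 3.67 to 16.6 ± 2.47 FPKM (-0.17, adjusted p = 0.502 as deposited, -0.36 and 0.179 rescaled). After correction for transcript length its difference was -0.63 (adjusted p = 0.032). The 4 smooth muscle genes did not pass either. Acta2, which activated fibroblasts also make, was at 75.6, 91.2, 98.7 and 92.3 FPKM in sham and at 128, 99.1, 138 and 156 FPKM in banded libraries. The lowest banded library exceeded the highest sham library by a narrow margin, and the difference of 0.53 ± 0.26 had an adjusted p of 0.159. Tagln, an actin-binding protein of smooth muscle, went from 9.04 ± 3.98 to 17.3 ± 5.39 FPKM (0.90, adjusted p = 0.055), Myh11, the smooth muscle myosin heavy chain, from 3.90 ± 0.878 to 4.29 ± 0.575 FPKM and Cnn1 from 0.466 ± 0.312 to 0.747 ± 0.490 FPKM.

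In the left ventricle of banded mice 2 of the 32 genes (6.25%) rose, the endothelial genes Eng and Vwf, and no mural gene did. None of the 32 fell. Of all genes 2.44% rose and 0.298% fell by the same rule. The scale decided most of this comparison: as deposited alone, 12 genes passed as higher (14.3% of all genes), and rescaled alone 2 passed as higher (2.44%) and 2 as lower (1.57%). The median difference of the endothelial genes was 0.59 as deposited and 0.22 rescaled, that of the mural genes 0.40 and 0.12, and that of all genes 0.33 and 0.01. At an unadjusted p under 0.05, 17 of 32 (53.1%) passed as deposited and 14 (43.8%) rescaled, 5 mural genes on each scale, against 30.1% and 19.9% of all genes. In the libraries with an Rn45s value, of which 1 is a left banded library, none of the 32 passed.

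Eng was at 49.2, 56.9, 49.9 and 58.1 FPKM in left sham and at 120, 81.9, 125 and 85.9 FPKM in left banded libraries. As deposited the lowest banded value lay well above the highest sham value, whereas the rescaled groups overlapped through sham library 2 (67.7) and banded library PS_9553 (66.4). The log2 difference was 0.91 ± 0.16 (adjusted p = 0.0026) as deposited and 0.51 (adjusted p = 0.041) rescaled. The call ended on omission of sham library 1, 2 or 3 or of banded library PS_9552, PS_9561 or PS_9564 (0.81 to 0.99, adjusted p = 0.072 to 0.128), under TPM scaling, which sets every library to the same sum (0.72, adjusted p = 0.094), under quantile normalization (0.38, adjusted p = 0.119) and in a fit of the 2 groups alone (adjusted p = 0.074). It was 0.68 (adjusted p = 1) in the libraries with an Rn45s value and 0.50 (adjusted p = 0.056) after correction for transcript length. Vwf was at 7.03, 5.12, 3.33 and 8.75 FPKM in sham and at 22.8, 15.4, 46.3 and 13.9 FPKM in banded libraries. Library PS_9561 stood highest, and all 4 banded libraries lay above the sham range. The difference was 1.76 ± 0.31 (adjusted p = 0.0026) as deposited and 1.39 (adjusted p = 0.018) rescaled. It was 1.72 (adjusted p = 0.065) without sham library 2, 1.55 (adjusted p = 0.062) without sham library 3, 1.60 (adjusted p = 0.051) under TPM scaling and 1.14 (adjusted p = 1) in the libraries with an Rn45s value. The erythroid and platelet genes summed to 80.0 to 157 FPKM in left sham and 253 to 739 FPKM in left banded libraries, without overlap, and their part in the difference of Vwf was not tested.

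Other endothelial genes passed in the left ventricle as deposited but not rescaled. Pecam1 was at 39.2, 30.5, 30.5 and 46.7 FPKM in sham and at 84.7, 76.0, 79.0 and 44.5 FPKM in banded libraries, and library PS_9564, the one with an Rn45s value, lay within the sham range. Its difference was 0.92 (adjusted p = 0.0055) as deposited and 0.51 (adjusted p = 0.067) rescaled. Ctla2a was at 10.4, 0.360, 7.72 and 9.38 FPKM in sham and at 35.7, 53.8, 28.5 and 16.2 FPKM in banded libraries, without overlap, with a difference of 2.38 (adjusted p = 0.014) and 2.03 (adjusted p = 0.073). Of the capillary lipid genes, Gpihbp1 differed by 1.18 (adjusted p = 0.0057) and 0.78 (adjusted p = 0.072), and Fabp4 by 0.82 (adjusted p = 0.0086) and 0.42 (adjusted p = 0.234). Fabp4 was at 858, 797, 838 and 948 FPKM in sham and at 1791, 1675, 1366 and 1300 FPKM in banded left ventricles, with no overlap, and the adipocyte genes summed to 1.87 to 8.35 and 3.84 to 7.43 FPKM. Plvap differed by 1.27 (adjusted p = 0.0058) and 0.92 (adjusted p = 0.065), Tek by 0.74 (adjusted p = 0.025) and 0.35 (adjusted p = 0.185) and Cd300lg by 0.56 (adjusted p = 0.047) and 0.16 (adjusted p = 0.697). Robo4 passed as lower only when rescaled, with differences of -0.20 (adjusted p = 0.504) and -0.58 (adjusted p = 0.036).

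The remaining endothelial genes passed on neither scale in the left ventricle. Their differences as deposited were 0.28 for Cdh5, 0.32 for Esam, 0.74 for Emcn, 0.77 for Cldn5, 0.17 for Tie1, 0.21 for Egfl7 and 0.09 for Aqp1. None of the 5 transcription factors passed: 0.32 for Ets1, 0.53 for Sox17, 0.62 for Erg, 0.31 for Tal1 and 0.12 for Sox18. Sox17 was at 4.36, 2.84, 3.82 and 3.298 FPKM in sham and at 3.20, 5.86, 6.48 and 7.63 FPKM in banded libraries. Banded library PS_9552 lay within the sham range.

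Among mural genes of the left ventricle 3 passed as higher on the deposited scale alone: Rgs5 (0.65, adjusted p = 0.040), Myh11 (0.78, adjusted p = 0.035) and Acta2 (0.89, adjusted p = 0.030). Rescaled, these were 0.25, 0.44 and 0.49 (adjusted p = 0.466, 0.211 and 0.227). Notch3 was at 17.8, 22.5, 15.9 and 14.2 FPKM in sham and at 13.5, 11.8, 12.9 and 12.7 FPKM in banded libraries. All banded values lay below the sham range, which was so for 0.942% of all genes. Its difference was -0.42 (adjusted p = 0.113) as deposited and -0.80 (adjusted p = 0.025) rescaled. The other 6 differed by -0.02 (Pdgfrb), 0.05 (Cspg4), 0.37 (Kcnj8), -0.21 (Abcc9), 0.81 (Tagln) and 0.44 (Cnn1) as deposited. Of the 32 genes, 7 had all banded libraries above all sham libraries as deposited (Eng, Vwf, Ctla2a, Plvap, Fabp4, Gpihbp1 and Cd300lg, all endothelial), against 22.2% of all genes. Rescaled, 5 did (these without Eng and Cd300lg), against 8.77%, and 4 had all banded libraries below all sham libraries (Robo4, Pdgfrb, Abcc9 and Notch3), against 7.79%.

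**Figure D4:**
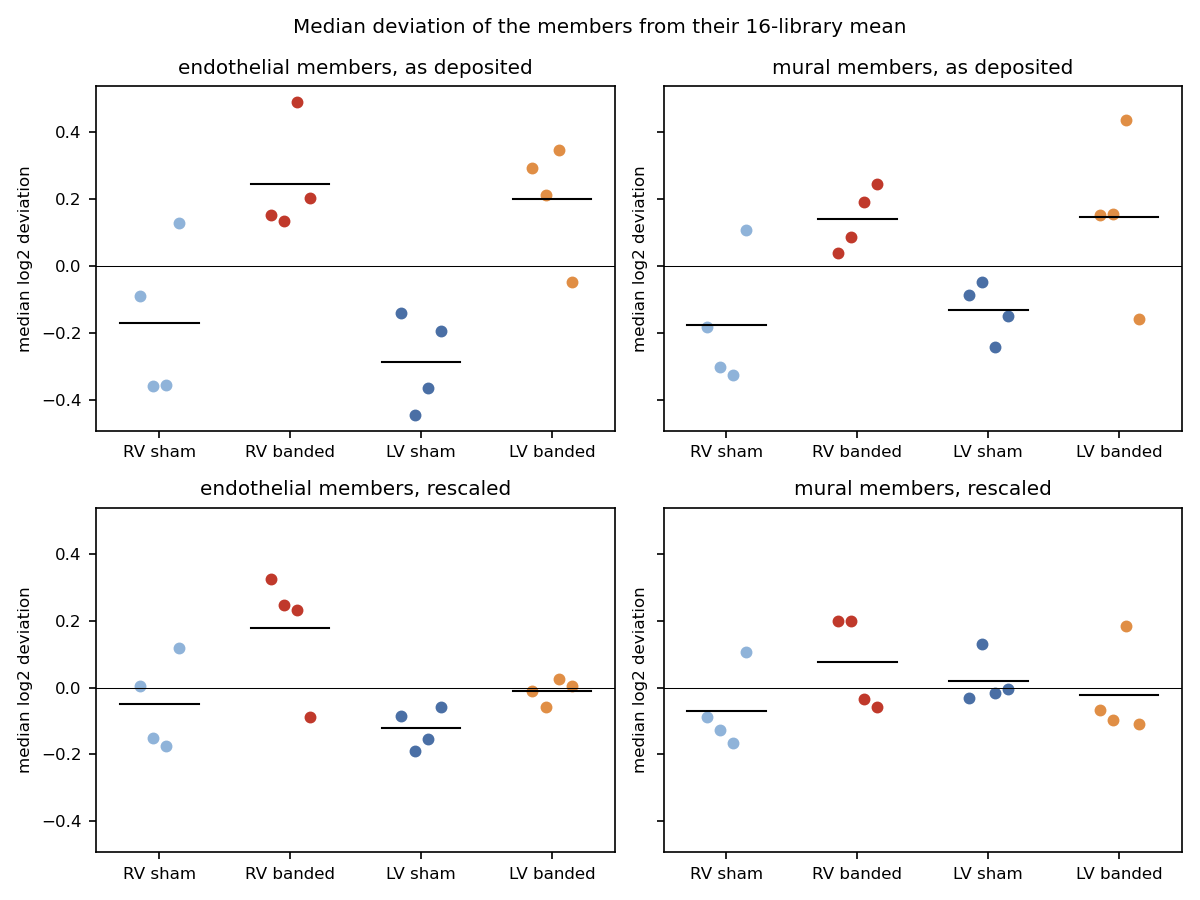
Median log2 deviation of the 22 endothelial (left) and 10 mural genes (right) from their means over 16 libraries, for each library, as deposited (top) and rescaled (bottom). As deposited, the right banded libraries (0.135 to 0.49) lie narrowly above the right sham libraries (-0.36 to 0.130) for endothelial genes. After rescaling these 2 right groups overlap, and the left banded libraries lie between -0.06 and 0.03.

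Seen per library, the median endothelial gene lay at -0.36 to 0.13 on the log2 scale relative to its own mean in right sham libraries and at 0.13 to 0.49 in right banded libraries as deposited. Rescaled, these were -0.18 to 0.12 and -0.09 to 0.33, so that the 2 groups overlapped. In the left ventricle the medians were -0.45 to -0.14 in sham and -0.05 to 0.35 in banded libraries as deposited, and -0.19 to -0.06 and -0.06 to 0.03 rescaled. The mean log2 level of mural genes minus that of endothelial genes, which the scale factor touches little, was -1.12 to -0.97 in right sham and -1.35 to -0.96 in right banded libraries, with overlap. It was -0.93 to -0.57 in left sham and -1.23 to -1.03 in left banded libraries. All 4 left banded libraries thus lay below all 4 left sham libraries in mural relative to endothelial level. The mural genes have the longer transcripts (median 4760 against 2990 nt), and over the 10 of them the rescaled left banding difference had a Spearman correlation of -0.70 with transcript length (-0.38 in the right ventricle, -0.19 and 0.19 over the 22 endothelial genes in left and right). Corrected for transcript length, the mural minus endothelial level was -0.98 to -0.63 in left sham and -1.17 to -1.03 in left banded libraries. It was -1.055 to -0.912 in right sham and -1.342 to -1.066 in right banded libraries. Sham and banded libraries then overlapped in neither ventricle, but the margin in the right was narrow (-1.055 against -1.066). The endothelial mean includes Ctla2a, whose level is uncertain, and the levels without it were not computed.

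Whether banding acted differently in the 2 ventricles was tested as the difference of the 2 differences. None of the 32 genes passed on both scales in limma, against 3.98% of all genes. At an unadjusted p under 0.05, 9 of 32 (28.1%) passed as deposited and 8 (25%) rescaled, against 18.2% and 21.9% of all genes. Rescaled alone, Ets1 (right minus left 0.53, adjusted p = 0.253 as deposited, 0.74 and 0.024 rescaled) and Cspg4 (0.67 and 0.154, 0.85 and 0.036) passed as higher in the right ventricle, against 2.16% of all genes. For Sox17 the difference was 0.82 ± 0.32 (adjusted p = 0.159) and 0.99 (adjusted p = 0.077), and for Eng -0.65 ± 0.23 (adjusted p = 0.115) and -0.44 (adjusted p = 0.172). For Vwf it was -0.98 ± 0.44 (adjusted p = 0.252) and for Ctla2a 0.04 ± 0.83 (adjusted p = 0.989). A gene that passed in one ventricle and not in the other is therefore not shown here to differ between them. Across the 22 endothelial genes the differences in the 2 ventricles had a Pearson correlation of 0.62 and a Spearman correlation of 0.36 as deposited (0.63 and 0.41 rescaled). Across the 10 mural genes these were 0.53 and 0.56. The genes of a library share its depth and scale, and genes are not independent replicates.

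Between the sham ventricles 2 of the 32 genes differed, both mural: Acta2 was higher and Rgs5 lower in the right ventricle. Of all genes 2.55% were higher and 1.33% lower there. Acta2 was at 75.6 to 98.7 FPKM in right sham libraries and at 34.1, 33.5, 25.0 and 51.5 FPKM in left sham libraries, without overlap. The difference was 1.33 ± 0.26 (adjusted p = 0.016) as deposited and 1.27 (adjusted p = 0.0061) rescaled, and 1.17 (adjusted p = 0.061) without left sham library 3. Under TPM scaling it was 0.76 (adjusted p = 0.058). The other 3 smooth muscle genes differed by 0.25 (Myh11), -0.17 (Tagln) and -0.01 (Cnn1) between the sham ventricles. Rgs5 was at 35.6 to 51.8 FPKM in right sham and at 73.5, 54.1, 73.2 and 93.3 FPKM in left sham libraries, without overlap. Its difference was -0.75 ± 0.20 (adjusted p = 0.047) and -0.80 (adjusted p = 0.013) rescaled. That call ended on omission of any 1 right sham library or of left sham library 1, 3 or 4 (-0.84 to -0.62, adjusted p = 0.052 to 0.117) with library number as a block (adjusted p = 0.102), with a pseudocount of 5, no filter or the 2 groups alone (adjusted p = 0.057 to 0.086) and in the libraries with an Rn45s value (adjusted p = 0.056). Rescaled alone, Eng was higher in the right ventricle (0.53, adjusted p = 0.072 as deposited, 0.47 and 0.038 rescaled) and Abcc9 lower (-0.67 and 0.065, -0.72 and 0.019), with 3.52% and 5.10% of all genes called higher and lower. Sox18 (0.87, adjusted p = 0.074) and Vwf (0.96, adjusted p = 0.090) did not pass.

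Between the banded ventricles no gene of the 32 differed on both scales in limma, against 1.57% of all genes. At an unadjusted p under 0.05, 6 of 32 (18.8%) passed as deposited and 10 (31.2%) rescaled, against 15.4% and 16.4% of all genes. Acta2 was at 99.1 to 156 FPKM in right and at 70.5, 60.6, 110 and 38.8 FPKM in left banded libraries. These overlapped through left library PS_9561, with a difference of 0.97 (adjusted p = 0.053) as deposited and 1.12 (adjusted p = 0.021) rescaled. Rescaled alone, Egfl7 passed as well (0.55, adjusted p = 0.188 as deposited, 0.71 and 0.036 rescaled), so 2 of 32 passed as higher in the right ventricle against 0.678% of all genes.

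Other endothelial genes, written down as lists with earlier results of these data known, gave 6 rises of 25 in the banded right ventricle. By the same rule of both scales 10.5% of all genes rose there and 4.93% fell. Cd34, a sialomucin of endothelial and progenitor cells, rose from 24.4 ± 5.97 to 64.6 ± 7.67 FPKM (log2 difference 1.39, adjusted p = 0.000488 as deposited, 1.20 rescaled). Ptprb, the endothelial phosphatase that acts on the Tek receptor, rose by 0.92 and Podxl, a surface sialomucin, by 0.76. By vessel type, 1 of 10 arterial genes rose: Efnb2, the arterial ephrin, from 5.89 ± 1.10 to 13.9 ± 4.52 FPKM (1.08, adjusted p = 0.0026). Of 6 venous genes 2 rose, Selp (P-selectin) and Ackr1, both listed at 0 in every right sham library. Selp was at 0.615 to 2.02 FPKM in the banded libraries and Ackr1 at 0 to 1.35 FPKM. Ackr1 was also at 0 in every left sham library. It thus passed the filter through banded libraries alone, and its rise is in part set by the filter. Of 8 genes of sprouting endothelium 2 rose, Esm1, a tip cell proteoglycan (sham 0 to 0.530 FPKM, banded 1.65 to 4.88 FPKM, difference 1.68), and the adhesion protein Mcam (0.84). In the test of the difference between ventricles Esm1 passed on both scales as higher in the right, the only gene of the endothelial lists to do so. The capillary list held no rise among 8 and 1 fall: Car4, a carbonic anhydrase of capillary endothelium, fell from 13.7 ± 4.25 to 5.86 ± 1.60 FPKM (-1.08, adjusted p = 0.016). At an unadjusted p under 0.05 in limma, 2 of these 8 passed on each scale, against 34.7% of all genes. Of 4 endocardial genes that could be tested 1 fell, Cytl1 (-0.82), and of 5 lymphatic genes 1 rose, Mmrn1 (1.05). Mmrn1 was low, at 0 to 0.2985 FPKM in sham and 0.9035 to 1.97 FPKM in banded libraries.

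Of the 25 other endothelial genes 2 rose in the left ventricle of banded mice, Clec14a, an endothelial lectin (5.55 ± 1.07 to 14.6 ± 3.34 FPKM, 1.24), and Cd34 (1.04, adjusted p = 0.0498 rescaled). By the same rule of both scales 2.44% of all genes rose there. Of the venous genes 1 rose, Ackr1, listed at 0 in all left sham libraries and at 1.40 to 2.005 FPKM in the banded ones. As in the right ventricle, Ackr1 passed the filter through banded libraries alone, so this rise is in part set by the filter. In the capillary, arterial, endocardial, lymphatic and sprouting lists no gene passed on both scales in limma. At an unadjusted p under 0.05, 0, 8, 0, 2 and 0 passed as deposited in that order and 0, 6, 0, 2 and 3 rescaled. The share of all genes at that threshold was 30.1% as deposited and 19.9% rescaled in the left ventricle. In the right ventricle it was 34.7% on each scale. The other pericyte list gave 0 of 9 in the right ventricle (3 as deposited and 2 rescaled at an unadjusted p under 0.05) and 0 of 9 in the left (5 and 3). Of 11 other smooth muscle genes, Cald1, an actin-binding regulator of contraction that many cells make, rose by 1.20 and Pcp4l1 fell by 0.63 in the right ventricle (Pcp4l1 also passed the difference between ventricles on both scales, as lower in the right), and 0 passed in the left (4 and 4 at an unadjusted p under 0.05).

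Markers of other cells moved in the same comparisons. On both scales 10.5% of all genes rose and 4.93% fell in the right ventricle, and 2.44% rose and 0.298% fell in the left. At an unadjusted p under 0.05 in limma, 34.7% of all genes passed on each scale in the right ventricle. In the right ventricle 2 of 8 cardiomyocyte genes fell, Tnni3 (-1.02) and Myl2 (-0.87), and the list summed to 35800 to 38870 FPKM in sham and 26370 to 34920 FPKM in banded libraries. In the left ventricle the same 2 genes rose (1.16 and 1.28), both passed the difference between ventricles as lower in the right, and the sums were 23870 to 37500 and 47560 to 61070 FPKM. The median difference of the 8 was -0.14 (-0.34 rescaled) in the right and 0.71 (0.30 rescaled) in the left ventricle. Of 9 fibroblast genes 3 rose in the right ventricle, Mfap5 (2.15), Col1a2 (1.10) and Col1a1 (1.07), with sums of 853 to 1193 FPKM in sham and 844 to 1319 FPKM in banded libraries. In the left ventricle 1 rose, Mfap5 (1.55), with sums of 600 to 857 and 1016 to 1638 FPKM. Of 9 macrophage genes 0 passed in the right ventricle in limma (2 as deposited and 1 rescaled at an unadjusted p under 0.05; sums 91.2 to 150 and 109 to 182 FPKM) and 1 rose in the left, C1qb (1.37; sums 85.6 to 129 and 172 to 251 FPKM). The part of these cells in the levels of the vessel genes was not tested. Of the 7 proliferation genes 2 could be tested, and 0 passed in either ventricle (1 at an unadjusted p under 0.05, in the right ventricle as deposited), with sums at or below 7.51 FPKM in every library.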

How the data were processed

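PolyA RNA of 16 ventricular libraries (4 per group) was measured as FPKM. The authors deposited 1 FPKM value per gene and library. FastQC 0.11.5, STAR 2.5.3a, Cufflinks 2.2.1, Cuffdiff, R 3.3.1 and build mm9 are named in the submitters' processing notes, and their settings, the annotation and strand handling are not given in the sources used here. FPKM are not counts, and no count model was used. The authors' table of group values was not used.

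Tests used log2(FPKM + 1) of the 12100 of 23946 genes that reached 1 FPKM in 4 or more of the 16 libraries. One limma 3.58.1 fit (R 4.3.3, trended prior, two-sided) of 4 group means gave the comparisons, with Benjamini-Hochberg adjustment over all 12100 genes and a threshold of 0.05. The fit was repeated after division of each library by a scale factor, the median ratio to the geometric mean of the 16 libraries, from the 8211 genes that reached 1 FPKM in all of them, and a call needed both scales in the same direction. The scripts were tested on simulated data. Depth was estimated, with an assumed fragment length of 200 nt, and intervals that need counts were not given.

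The 32 genes and the other lists (177 symbols in all, 4 found under an older name) were chosen with earlier results of these data known. All 32 are named. Of every other list, up to 3 genes that passed on both scales in a banding comparison are named by smallest adjusted p, and the rest are counted. No set test was run. Library numbers were checked as pairs: 1 of 8 same-numbered pairs of right and left libraries had a correlation of deviations over 0.1 (range -0.0964 to 0.16), so they were used as names only. Alternatives were other scalings, pseudocounts, filters, a robust prior, a block by library number, only the groups compared, the libraries with an Rn45s value, a correction for transcript length (12020 genes) and omission of each library. Promoter letters came from RefSeq (GRCm38.p6).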

Additional observations from a re-analysis of the deposited data

Results flagged for a closer look

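Of 128 groups of 4 libraries (32 genes in 4 groups), 10 had 1 library whose gap to the nearest other library was large against the group's range by Dixon's 95% limit for 4 values, which chance passes in about 1 in 20 groups. In the right ventricle of banded mice these were Pecam1 in library PS_9561 (64.6 FPKM, the others 51.6 to 53.7), Kcnj8 in library PS_9561 (13.7, the others 9.002 to 9.42), Cspg4 in library PS_9564 (8.96, the others 6.20 to 6.48) and Sox17 in library PS_9552, which was the lowest (6.47, the others 8.72 to 8.88). In right sham libraries they were Vwf in library 4 (14.8 FPKM, the others 11.1 to 11.7), Ctla2a in library 3 (10.9, the others 1.90 to 3.27) and Cnn1 in library 2 (0, the others 0.587 to 0.669). In the left ventricle they were Cdh5 in sham library 3 (54.4 FPKM, the others 63.5 to 64.3), Tagln in sham library 4 (11.2, the others 9.06 to 9.32) and Abcc9 in banded library PS_9561 (58.7, the others 42.5 to 44.0). Right sham library 2 had the lowest estimated depth. Of these, Pecam1, Kcnj8 and Abcc9 were highest in libraries named PS_9561, both of which have Rn45s listed at 0.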

How the results depend on the processing

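No result changed direction with a call. In the right ventricle 6 genes rose, 19 under TPM scaling (every library to the same sum), 3 in a fit of the 2 groups alone and 1 (Sox17) in the libraries with an Rn45s value. Without single libraries 4 to 8 passed, which counts Aqp1 as lower without library PS_9552. Corrected for transcript length 6 passed in limma, but not the same 6. Sox17, Ets1, Ctla2a and Tagln (0.83, adjusted p = 0.037) were higher, and Aqp1 (-1.26, adjusted p = 0.025) and Notch3 (-0.63, adjusted p = 0.032) were lower. The endothelial median of 0.40 was 0.88 under TPM scaling, and the mural median of 0.26 was 0.68 under TPM scaling and 0.0053 after correction for transcript length. In the left ventricle 2 rose. This ventricle had 12 genes that passed as deposited, 4 rescaled (2 of them lower) and 0 under TPM scaling. Under quantile normalization it had 5, Vwf as higher and Robo4, Pdgfrb, Abcc9 and Notch3 as lower. It had 4 with a filter at 5 FPKM, 1 corrected for length and 0 to 4 without single libraries. Its endothelial median of 0.59 was 0.22 rescaled, 0.41 under TPM scaling, 0.23 under quantile normalization, 0.26 with an Rn45s value and 0.20 corrected for length. Its mural median of 0.40 was 0.12 rescaled, 0.024 under quantile normalization, 0.21 with a pseudocount of 5 (0.208) or a filter at 5 FPKM (0.21), -0.084 with an Rn45s value and 0.067 corrected for length.

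For the difference between ventricles, 0 genes passed, against 2 rescaled, 5 under TPM scaling and 3 under quantile normalization. The endothelial median of -0.24 was -0.026 rescaled, 0.43 under TPM scaling, 0.20 under quantile normalization, 0.23 with an Rn45s value, 0.047 corrected for length and -0.45 to -0.068 without single libraries. The mural median of 0.076 was 0.29 rescaled, 0.74 under TPM scaling, 0.42 under quantile normalization, 0.26 with an Rn45s value and -0.15 to 0.20 without single libraries. Between sham ventricles 2 differed, 4 rescaled, 7 under TPM scaling, 4 under quantile normalization, 1 with a pseudocount of 5, 1 with no filter, 1 in a fit of the 2 groups alone, 4 corrected for length and 0 to 2 without single libraries. Between banded ventricles 0 differed, against 2 rescaled, 2 under quantile normalization, 1 with a pseudocount of 5, 1 with a filter at 5 FPKM, 1 with a robust prior, 2 corrected for length and 0 to 1 without single libraries. With library number as a block, 1 gene differed between sham ventricles in place of 2, and no other count moved by over 1.5 times. The cause of these shifts was not tested.

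The depth of the right sham libraries limits the low genes: Tal1, Cnn1, Ctla2a, Plvap, Tagln and Sox17 rested there on fewer than 5 estimated fragments in at least 1 library. The omission of single libraries used the pooled spread of all groups.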
